A study of Mus musculus with 13 samples.

Results

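The distal chromosome 7 imprinted domain was examined at H19, Igf2, Kcnq1ot1 and Cdkn1c, by taking every CpG that falls within 4 intervals of the mouse genome, fixed by position (build mm9). The rule gave 559 CpGs with a read in at least 1 library, of 3338357 CpGs read on the autosomes and the X chromosome. Of these, 55 lay in the interval of H19 and its upstream control region, whose CpGs spanned chr7:149756991-149774573. The Igf2 interval held 275, at chr7:149837515-149856224, the Kcnq1ot1 promoter interval 45, at chr7:150472457-150485694, and the Cdkn1c interval 184, at chr7:150641046-150649998. The series used reduced representation bisulfite sequencing (RRBS), which reads CpGs near the cut sites of a restriction enzyme and gives, for each, the number of reads with a methylated cytosine. It holds 2 libraries of mouse embryonic fibroblasts (MEFs) labelled male. There is 1 library each of male reprogramming intermediates negative and positive for the surface antigen SSEA1. Male induced pluripotent stem cells (iPSCs) have 3 libraries. Female iPSCs have 4 libraries labelled XO (1 X chromosome) and 2 labelled XaXa (both X chromosomes active). iPSCs had been depleted of feeder cells. The labels give no strain, passage, reprogramming factors or time point, and do not say whether the libraries of a group came from separate lines, so p-values measure only the spread between libraries.

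In this domain the 2 parental copies of a gene are used differently. The H19 control region is methylated on the paternal copy, where Igf2, a fetal growth factor, is expressed, and unmethylated on the maternal copy, which expresses the non-coding RNA H19. The Kcnq1ot1 promoter is methylated on the maternal copy; on the paternal copy it is unmethylated, the non-coding RNA Kcnq1ot1 is made, and neighbours such as Cdkn1c, an inhibitor of cyclin-dependent kinases, are kept silent. A library in which each copy kept its parental state would therefore read a mixture of methylated and unmethylated molecules at both control regions, and RRBS without allele information cannot say which copy a read came from.

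The sequence shown is an Igf2 promoter from RefSeq (build GRCm38.p6, 250 bases before to 50 bases after the transcription start, minus strand). It is called promoter 4 here by its order among the listed Igf2 sequences, which is not an established promoter name. It was chosen because its start lies in the Igf2 tile that differed most between MEFs and the male and XO iPSCs. It was placed on mm9 at chr7:149843352-149843651 by matching its CpGs and their neighbouring bases to those in the deposited tables. Capitals mark the 3 of its 7 CpGs that had reads.

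Igf2 promoter 4: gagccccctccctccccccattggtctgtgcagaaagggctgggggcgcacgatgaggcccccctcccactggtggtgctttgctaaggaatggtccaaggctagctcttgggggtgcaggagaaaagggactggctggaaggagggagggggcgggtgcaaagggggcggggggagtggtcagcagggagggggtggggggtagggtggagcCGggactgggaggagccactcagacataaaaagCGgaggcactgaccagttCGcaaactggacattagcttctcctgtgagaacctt

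It holds CCGG 1 time; this motif, the same on both strands, occurred in 52.8% of the 32851 RefSeq promoter sequences of this length.

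The libraries held between 4769160 reads (XO 9) and 142939488 reads (XaXa 8), counted over CpGs, and pooled methylation of the autosomes was 40.8% and 25.3% in the XaXa libraries against 45.4% to 60.6% in the other 11. Several libraries stood apart from their labels. Median X depth relative to autosomal depth, with the male iPSC libraries set to about 1, was 1.29, 1.20 and 1.36 in the libraries XO 3, 5 and 9, against 1.04 in XO 6 and 1.34 and 1.498 in the XaXa libraries. The library labelled male MEF 5 had Y reads equal to 0.0219% of its autosomal reads against 0.0913% in MEF 4, and an X depth of 1.26 relative to the SSEA1 libraries. Its Y share was below that of every library labelled female, which ran from 0.0397% (XO 9) to 0.0485% (XaXa 7). In a window at the promoter of Pou5f1, a pluripotency gene methylated in fibroblasts, levels were 57.1% and 64.7% in MEFs, 6.12% to 15.6% in male iPSCs and 7.14% and 5.75% in XaXa, and 23.3% to 64.9% in the libraries labelled XO. As an unweighted mean over CpGs with at least 5 reads, XO 6 read 12.9% there, within the male iPSC range of 5.83% to 13.6%. By that measure XO 3, 5 and 9 read 51.1%, 25.0% and 66.7%. Summed over reads, XO 6 stood at 36.1%, above all male iPSC libraries. Over the CpGs read in all 13 libraries it stood at 55.5%, against 11.4% to 16.1% in male iPSCs. Whether XO 6 resembled male iPSCs there thus depended on the measure.

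The H19 interval was least methylated in the XaXa libraries. Methylated reads made up 41.2% in XaXa 7 and 37.4% in XaXa 8, against 78.5%, 70.4%, 73.5% and 60.5% in XO 3, 5, 6 and 9. The male iPSC libraries read 66.3%, 60.5% and 79.3%, the MEF libraries 58.3% and 65.1%, and the libraries negative and positive for SSEA1 55.1% and 58.5%. Both XaXa libraries lay below each of the other 11; MEFs, male iPSCs and XO overlapped with one another, and the SSEA1 negative library lay below all of these. XaXa was 31.4 points below XO (39.3% ± 2.65, SD, n = 2, against 70.7% ± 7.59, n = 4; exact two-sided permutation test, p = 0.0667) and 29.4 points below male iPSCs (68.7% ± 9.61, n = 3; exact permutation p = 0.1), each p the smallest that these group sizes allow. Against XO 6 alone the difference was -34.2 points.

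**Figure D1:**
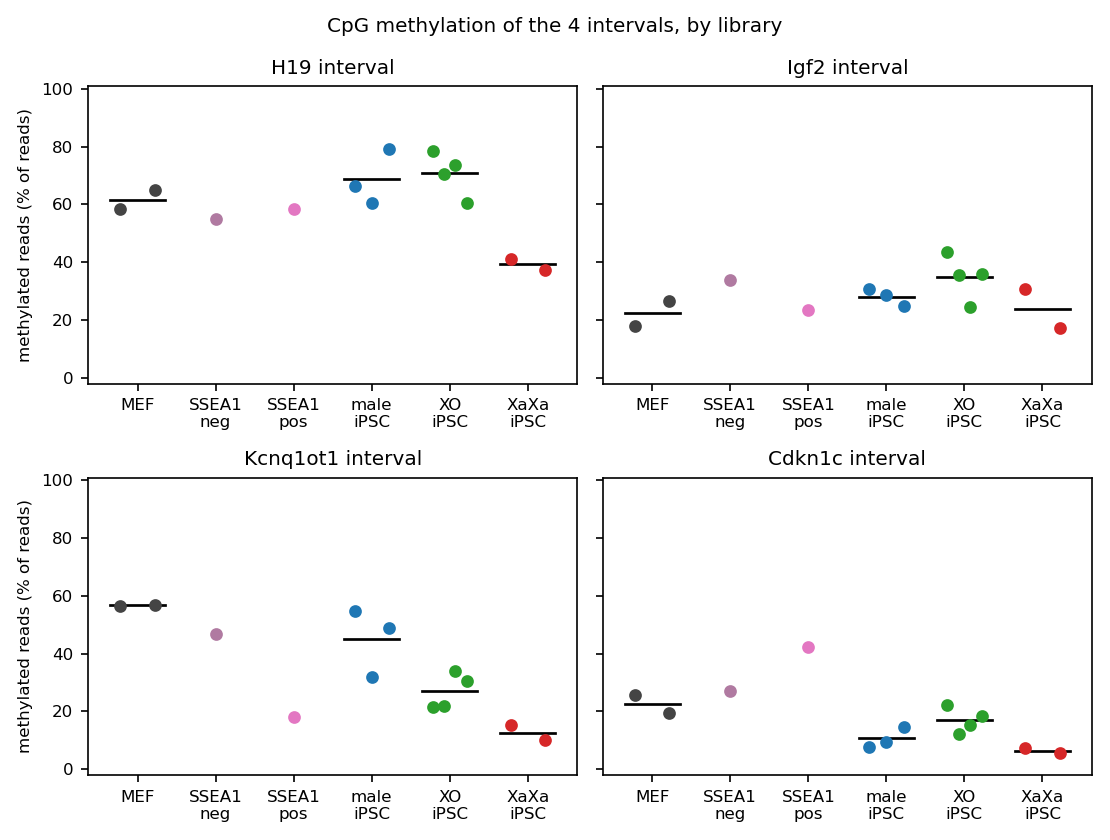
Methylated reads as a percentage of all reads (vertical axis) in each of the 4 intervals, 1 point per library; black lines are the means of groups with at least 2 libraries. In the H19 panel the XaXa libraries, at 41.2% and 37.4%, lie below all others; in the Kcnq1ot1 panel all XO and XaXa libraries lie below both MEF libraries.

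Within H19, 1 kb tiles were tested in a fit over all 96660 tiles that had at least 10 summed reads in every library; a tile was called at an adjusted p under 0.05 (quasi-binomial model, Benjamini-Hochberg) and with group means at least 10 percentage points apart. The tile chr7:149761001-149762000, which held most of the interval's reads, stood at 46.0% and 49.3% in XaXa and at 83.6%, 81.7%, 81.1% and 72.2% in XO. It was 32.0 points lower in XaXa than in XO (difference -32.0, quasi-binomial adjusted p = 0.00302) and 30.1 points lower than in male iPSCs (difference -30.1, quasi-binomial adjusted p = 0.00496). The tile chr7:149764001-149765000 read 36.4% and 37.6% in XaXa against 58.3% to 84.7% in XO, which put XaXa 34.2 points lower (difference -34.2, quasi-binomial adjusted p = 0.00578). Without XaXa 8 the calls of both tiles were lost, at differences to XO of -33.6 and -34.8 points. No mm9 gene annotation was used here, so tiles are given by position and not by exon.

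The H19 control window, placed from general knowledge of the domain, was read at 10 CpGs between chr7:149767047 and chr7:149768105, and only 2 of them had reads in all 13 libraries. Levels were 88.9% (18 reads) and 59.5% (37 reads) in MEF 4 and MEF 5, 56.2% and 60.0% in the libraries negative and positive for SSEA1, 28.1%, 27.8% and 57.6% in male iPSCs, 55.0%, 44.4%, 54.5% and 25.0% in XO 3, 5, 6 and 9, and 30.0% and 16.5% in XaXa 7 and 8. All iPSC libraries lay below both MEF libraries, male iPSC 4 by the least. None of the 6 comparisons passed the exact permutation test at 0.05. Only XO against male iPSCs, with a smallest possible p of 0.0286, could have passed (difference 6.90, exact permutation p = 0.686). In the other comparisons the group sizes allowed no p below 0.0667, so not passing carries no information there. Male iPSCs were 36.3 points below MEFs (difference -36.3, exact permutation p = 0.2) and XO 29.4 points below (difference -29.4, p = 0.133). XaXa and XO overlapped (difference -21.5, exact permutation p = 0.2). The XO 9 value rests on 8 reads. The MEF libraries were not alike, and the male and XO differences were -51.0 and -44.1 against MEF 4 alone, and -21.6 and -14.7 against MEF 5 alone. With XO 6 as the only XO library, XO was 19.6 points below MEFs (difference -19.6) and XaXa 31.3 points below XO (difference -31.3).

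The tile that holds this window had too few reads in XO 9 for the fit over all libraries. In the same fit without XO 9, over 128887 tiles, chr7:149767001-149768000 was lower in XaXa than in MEFs (difference -50.8, quasi-binomial adjusted p = 0.00157), XO (difference -28.0, adjusted p = 0.00609) and male iPSCs (difference -15.8, adjusted p = 0.0458). The MEF call held without any 1 further library, and the XO call held with XO 6 alone (difference -31.2, quasi-binomial adjusted p = 0.0291) but was lost without XaXa 8 (difference -21.3, adjusted p = 0.173). The male call was lost with XO 6 as the only XO library or without XO 3, XO 5, XaXa 8 or male iPSC 4 (differences of -15.8 to -6.35, adjusted p of 0.0516 to 0.525).

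**Figure D2:**
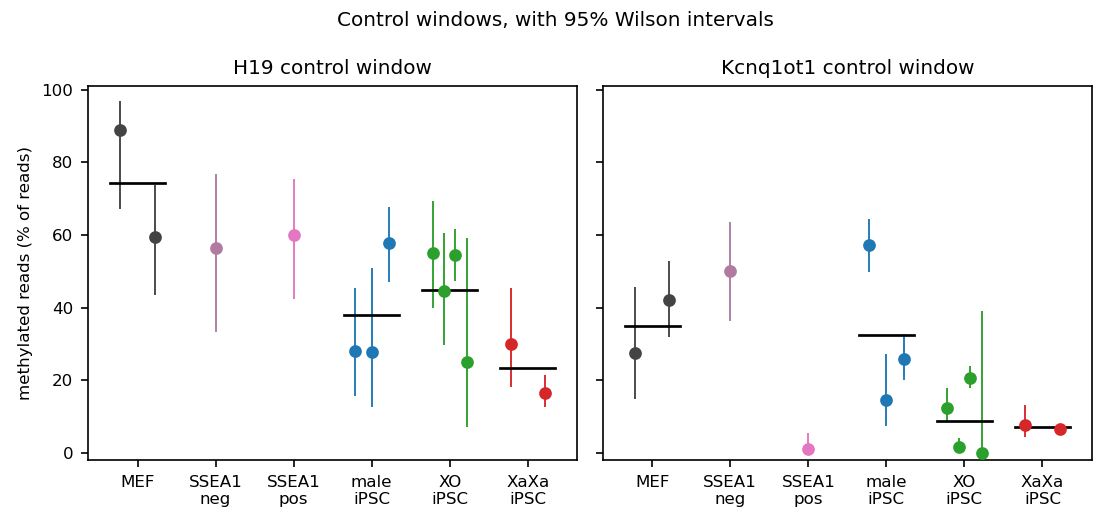
Methylated reads (%) in the H19 and Kcnq1ot1 control windows, 1 point per library with its 95% Wilson interval, which covers counting error only; black lines are group means. At H19 the MEF libraries, at 88.9% and 59.5%, are the highest of the replicated groups, with male iPSC 4 at 57.6% close below; at Kcnq1ot1 the libraries at or below 1.6% are SSEA1 positive, XO 5 and XO 9.

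The Igf2 interval as a whole showed no difference that passed the exact permutation test at 0.05, and its tiles did not move together. Group sizes let only XO against male iPSCs pass (smallest possible p = 0.0286), and it did not (difference 6.78, exact permutation p = 0.257). The interval read 17.8% and 26.7% in MEFs, 33.9% and 23.4% in the libraries negative and positive for SSEA1, 30.8%, 28.6% and 24.8% in male iPSCs, 43.6%, 35.6%, 24.4% and 35.8% in XO 3, 5, 6 and 9, and 30.8% and 17.1% in XaXa. XaXa overlapped with XO (difference -10.9, exact permutation p = 0.267), with male iPSCs (difference -4.12, p = 0.7) and with MEFs (difference 1.70, p = 1). With XO 6 as the only XO library, the XaXa difference was -0.440.

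One Igf2 tile rose from fibroblasts to male and XO iPSCs. The tile chr7:149843001-149844000, which holds the start of the promoter printed above, read 9.38% and 23.2% in MEFs, 66.7%, 54.5% and 49.7% in male iPSCs, 69.8%, 70.1%, 48.5% and 50% in XO and 42.2% and 29.2% in XaXa, with 39.5% and 31.0% in the libraries negative and positive for SSEA1. Every iPSC library lay above both MEF libraries. The rise was 40.7 points in male iPSCs (quasi-binomial adjusted p = 0.00958) and 43.3 points in XO (adjusted p = 0.00368); the XO rise was 32.1 points and no longer called with XO 6 alone (adjusted p = 0.0866), and the male rise was 33.8 points and no longer called without MEF 4 (adjusted p = 0.0670), but 47.6 points and still called without MEF 5. The XaXa difference to MEFs, 19.4 points, did not pass (adjusted p = 0.109). XaXa was 23.9 points below XO in this tile (difference -23.9, quasi-binomial adjusted p = 0.0161). The call was lost against XO 6 alone (difference -12.7), without XO 5 (adjusted p = 0.0564) and without XaXa 8 (difference -17.4).

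At the CpGs in capitals in the promoter, the pattern was another one. The MEF libraries had reads at all 3 of them and each iPSC library at only 2. MEFs and iPSCs were therefore not read over the same CpGs here. MEF 4 had 0 methylated of 12 reads and MEF 5 had 15 of 27. Male iPSCs had 0 of 4, 3 of 10 and 6 of 60, XO 3, 5, 6 and 9 had 20 of 33, 28 of 44, 32 of 143 and 2 of 6, and XaXa had 9 of 28 and 26 of 195. XO 3 and XO 5 were the highest iPSC libraries there, at 60.6% and 63.6%, and the MEF libraries were not alike. In male iPSCs these CpGs read 30.0% at most, where the whole tile read 49.7% to 66.7%.

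Towards the upstream side of Igf2, the tiles chr7:149845001-149846000 and chr7:149846001-149847000 stood between 0% and 6.63% in all 13 libraries, XaXa included, and neither was called in any comparison. At chr7:149855001-149856000 all 11 libraries other than XaXa read 89.0% to 97.8%, and XaXa 7 and 8 read 74.8% and 72.0%. This tile was lower in XaXa than in XO (difference -18.7, quasi-binomial adjusted p = 0.00802), male iPSCs (difference -18.5, adjusted p = 0.0129) and MEFs (difference -18.8, adjusted p = 0.0344). The XO call was lost with XO 6 alone (difference -16.9). Without XaXa 8 the XO and male calls were lost (differences -17.3 and -17.2). The MEF call was lost when MEF 4, MEF 5 or either XaXa library was left out.

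XO 3 and XO 5 stood out in an Igf2 tile, and in the adjoining tile all XO libraries lay above the male iPSC libraries. At chr7:149850001-149851000 they read 31.5% and 17.9%, and the other 11 libraries 1.83% to 7.6%. At chr7:149851001-149852000 XO 3, 5, 6 and 9 read 76.5%, 57.9%, 44.4% and 54.5%, all above the male iPSC libraries at 40.8%, 31.2% and 29.6%. The XO minus male difference was 24.5 points there, at an unadjusted p of 0.00394 that did not pass after adjustment over all tiles (quasi-binomial adjusted p = 1), and 10.6 points with XO 6 alone. XaXa, at 34.5% and 22.9%, was below XO in that tile (difference -29.7, quasi-binomial adjusted p = 0.00453). The call was lost with XO 6 alone (difference -15.8) and without XaXa 8 (difference -23.9). X depth was 1.29 and 1.20 in XO 3 and XO 5 and 1.04 in XO 6. It was also 1.36 in XO 9 and 1.34 and 1.498 in XaXa 7 and 8, which were among the other 11 libraries in the first tile. The part of X depth in these values was not tested.

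**Figure D3:**
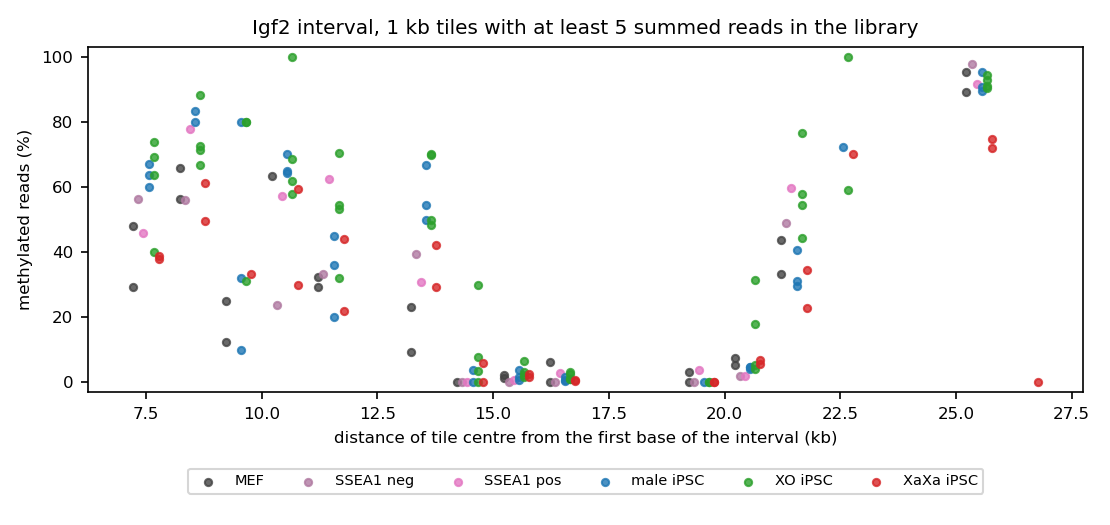
Methylated reads (%) in 1 kb tiles of the Igf2 interval, by distance of the tile centre from the first base of the interval (kb), 1 point per library and tile with at least 5 summed reads, coloured by group and shifted sideways for legibility. A run of tiles near 0% in every library lies between tiles at intermediate levels, and the highest tile has the XaXa libraries at 74.8% and 72.0% below all others.

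The Kcnq1ot1 interval had its lowest levels in XO and XaXa iPSCs and in the SSEA1 positive library. It read 56.5% and 56.9% in MEFs, 46.8% and 18.0% in the libraries negative and positive for SSEA1, 54.9%, 31.8% and 48.9% in male iPSCs, 21.4%, 21.9%, 34.0% and 30.4% in XO 3, 5, 6 and 9, and 15.4% and 10.04% in XaXa. All XO and XaXa libraries lay below both MEF libraries, and XO overlapped with male iPSCs through XO 6 and male iPSC 2. XO was 29.8 points below MEFs (difference -29.8; 26.9% ± 6.26, n = 4, against 56.7% ± 0.272, SD, n = 2; exact permutation p = 0.0667, the smallest possible) and 18.2 points below male iPSCs (difference -18.2; 45.2% ± 12, n = 3; exact permutation p = 0.0571, where 0.0286 was possible). With XO 6 alone these differences were -22.7 and -11.2, and without MEF 5 the former was -29.6.

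At the Kcnq1ot1 control window, whose 33 CpGs with reads lay between chr7:150481280 and chr7:150482361, the lowest values were near 0. The level was 27.6% and 42.0% in MEFs, 57.1%, 14.6% and 25.8% in male iPSCs, 12.4%, 1.56%, 20.7% and 0% (of 6 reads) in XO 3, 5, 6 and 9, and 7.69% and 6.61% in XaXa. The SSEA1 negative library had 24 methylated of 48 reads, and the SSEA1 positive library had 1 of 102. XaXa and XO overlapped (difference -1.51, exact permutation p = 1), and XO was 23.9 points below male iPSCs (difference -23.9, exact permutation p = 0.0857) and 26.1 points below MEFs (difference -26.1, p = 0.0667, the smallest possible). With XO 6 as the only XO library these differences were -13.5, -11.9 and -14.1, without male iPSC 1 the XO minus male difference was -11.5, and without MEF 5 the XO minus MEF difference was -18.9. Over the 6 CpGs read in all 13 libraries the XO minus male and XO minus MEF differences were -43.3 and -11.4. Over these 6 CpGs the male iPSC minus MEF difference changed from -2.26 to 31.9 points, so the order of these groups depends on which CpGs are read.

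The tiles beside this window behaved otherwise. In the fit without XO 9, chr7:150481001-150482000 showed no difference that passed between XaXa and XO (difference -4.28, quasi-binomial adjusted p = 0.508; -13.2 with XO 6 alone, adjusted p = 0.171) and was lower in XaXa than in male iPSCs (difference -25.4, adjusted p = 0.00931; lost without XaXa 8 or male iPSC 1, at adjusted p of 0.105 and 0.0545, with a difference of -13.1 without the latter). The flanking tiles at chr7:150472001-150473000, chr7:150473001-150474000 and chr7:150485001-150486000 were lower in XaXa than in XO, by differences of -35.4, -41.0 and -37.9 points, and all passed (quasi-binomial adjusted p = 0.00276, 0.00205 and 0.00428). With XO 6 alone these were -36.3, -36.6 and -32.9 and still called (adjusted p = 0.0210, 0.0207 and 0.0394), and without XaXa 8 the calls of the first and last were lost (adjusted p = 0.142 and 0.0530). At chr7:150485001-150486000 the XO libraries in that fit read 83.3% to 91.7% and XaXa 47.4% and 53.6%. The XO minus male difference at the window, -21.1 points, did not pass (unadjusted p = 0.00951, quasi-binomial adjusted p = 0.796).

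The Cdkn1c interval had its lowest levels in XaXa and male iPSCs, without a difference that passed the exact test at 0.05. Here too only XO against male iPSCs could have passed (smallest possible p = 0.0286; difference 6.46, exact permutation p = 0.114). It read 25.8% and 19.5% in MEFs, 27.0% and 42.2% in the libraries negative and positive for SSEA1, 7.77%, 9.60% and 14.6% in male iPSCs, 22.3%, 12.3%, 15.3% and 18.6% in XO 3, 5, 6 and 9, and 7.41% and 5.54% in XaXa. XaXa lay below every other library, and male iPSCs below both MEFs. Male iPSCs were below MEFs (difference -12.02, exact permutation p = 0.1, the smallest possible; -3.36 over the CpGs read in all 13 libraries) and XaXa 10.6 points below XO (difference -10.6, p = 0.0667, the smallest possible; -8.79 with XO 6 alone).

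Its tile chr7:150645001-150646000 fell in every iPSC group. MEFs read 22.2% and 18.1% and the libraries negative and positive for SSEA1 13.4% and 43.1%, whereas the 9 iPSC libraries read 0% to 3.93%, without overlap. The difference to MEFs was -17.6 points in male iPSCs (quasi-binomial adjusted p = 0.0274), -18.4 in XO (adjusted p = 0.0119) and -19.1 in XaXa (adjusted p = 0.00600). The male call was lost when MEF 4, MEF 5, male iPSC 1 or male iPSC 2 was left out (adjusted p of 0.0545 to 0.0829), and the XO call was lost with XO 6 alone (difference -19.3, adjusted p = 0.0676). At chr7:150647001-150648000 XaXa was also below MEFs (1.32% and 1.05% against 14.5% and 13.3%; difference -12.7, adjusted p = 0.0242; lost without XaXa 7 or XaXa 8, at adjusted p of 0.0670 and 0.135). The tile chr7:150644001-150645000 read 16.3% and 14.5% in XaXa against 27.6% to 53.1% in XO (difference -22.9, quasi-binomial adjusted p = 0.0150). That call was lost with XO 6 alone (difference -19.6) and without XaXa 8 (difference -22.0).

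**Figure D4:**
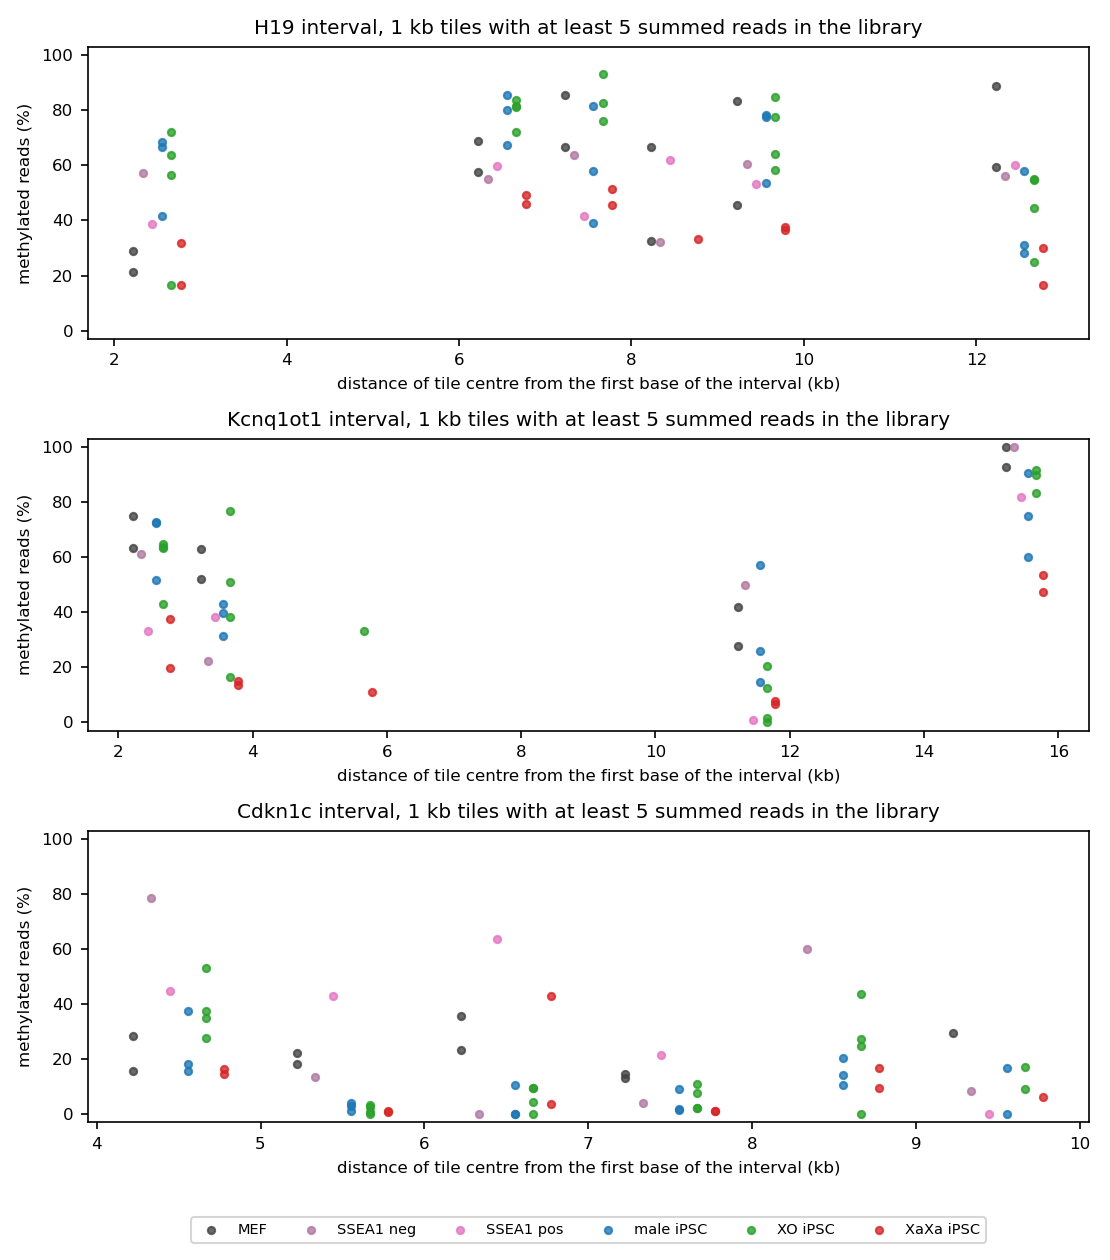
Methylated reads (%) in 1 kb tiles of the H19, Kcnq1ot1 and Cdkn1c intervals, by distance of the tile centre from the first base of the interval (kb), 1 point per library and tile with at least 5 summed reads. The second Cdkn1c tile has all iPSC libraries at 0% to 3.93% and both MEF libraries at 22.2% and 18.1%.

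Taking the H19 control window minus the Kcnq1ot1 control window within each library set the control regions side by side. The difference was 61.3 and 17.5 points in MEFs, -29.0, 13.2 and 31.8 in male iPSCs, 42.6, 42.9, 33.9 and 25.0 in XO 3, 5, 6 and 9, and 22.3 and 9.94 in XaXa. All XO libraries had more methylation at H19 than at Kcnq1ot1, whereas male iPSC 1 had the reverse. XO exceeded male iPSCs by 30.8 points (exact permutation p = 0.0571), by 28.6 points with XO 6 alone and by 13.6 points without male iPSC 1. Over the CpGs read in all libraries the excess was 49.3 points (exact permutation p = 0.0286). This alternative rests on 2 CpGs at H19 and 6 at Kcnq1ot1, where XO 9 had 8 and 6 reads. Its p was not adjusted for the number of alternatives. Over all CpGs, XaXa was below XO (difference -19.96, exact permutation p = 0.0667, the smallest possible).

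Imprinted windows elsewhere gave a scale for these values. At Rasgrf1, methylated on the paternal copy as H19 is, levels were 69.7% and 58.2% in MEFs, 62.9% to 67.6% in male iPSCs, 44.4% to 70.0% in XO and 35.5% and 29.0% in XaXa. Taken within libraries, H19 minus Rasgrf1 was 25.9 points lower in XO than in MEFs (difference -25.9, exact permutation p = 0.0667) and 37.3 points lower in male iPSCs than in MEFs (difference -37.3, p = 0.2). The smallest p that these group sizes allow is 0.0667 and 0.1, so neither could pass at 0.05. Without MEF 5 these differences were -34.8 and -46.2, without MEF 4 they were -16.9 and -28.3, and with XO 6 alone the former was -22.0. At Snrpn, methylated on the maternal copy as Kcnq1ot1 is, XO 3 and XO 5 read 1.03% and 5.14%, XO 6 and XO 9 37.8% and 18.9%, and male iPSCs 53.2%, 45.2% and 17.4%. The windows at Dlk1-Dio3 and Peg3 had as few as 4 reads in a library and were not compared.

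Divided by the autosomal level of the same library, H19 in XaXa overlapped with the other iPSCs, and Kcnq1ot1 in XO lay below both MEF libraries. The ratio at H19 was 1.01 and 1.48 in XaXa, 1.21 to 1.51 in XO and 1.197 to 1.75 in male iPSCs, with overlap (XaXa minus XO -0.126, exact permutation p = 0.467; -0.269 with XO 6 alone). At Kcnq1ot1 the ratio was 1.03 and 1.02 in MEFs, 1.08, 0.628 and 1.08 in male iPSCs, 0.354, 0.455, 0.700 and 0.610 in XO and 0.376 and 0.397 in XaXa; the XO minus MEF difference was -0.496 (exact permutation p = 0.0667, the smallest possible) and the XO minus male difference -0.4003 (p = 0.0571); with XO 6 alone they were -0.326 and -0.230. At Igf2 the ratio was 0.324 and 0.480 in MEFs, below every iPSC library, and 0.720, 0.739, 0.502 and 0.717 in XO 3, 5, 6 and 9. XaXa, at 0.756 and 0.675, overlapped with XO (difference 0.0456, exact permutation p = 0.8). XaXa lay above the male iPSC values of 0.608, 0.566 and 0.546 (difference 0.142, exact permutation p = 0.1, the smallest possible). This separation depended on how the autosomal level was taken. Pooled over reads, as here, that level was 25.3% in XaXa 8 and 50.6% in male iPSC 1. As an unweighted mean over tiles it was 30.4% and 52.4%, and XaXa 8 then fell below male iPSC 1. At Cdkn1c the ratio, with the autosomal level pooled over reads, was 0.182 and 0.219 in XaXa. These values lay within the male iPSC range of 0.153 to 0.321 (difference -0.0212, exact permutation p = 0.9). They lay below the XO range of 0.256 to 0.372 (difference -0.127, exact permutation p = 0.133).

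The counts of member tiles were read against the share of all tiles called. In XaXa against XO, 6 of the 11 member tiles in the fit of all libraries were lower, where 69.7% of all tiles were. In XaXa against male iPSCs 3 of 11 were lower (62.4% of all tiles), and in XaXa against MEFs 3 of 11 (63.8%), with 0 of 11 higher (0.702%). The median difference of the 11 tiles was -18.7, -5.18 and -9.91 points in these comparisons, beside -24.9, -24.7 and -29.6 over all tiles. A tile under 10% in the group compared could not be called lower. Male iPSC means were 2.08%, 0.945% and 4.51% in the Igf2 tiles that start at chr7:149845001, chr7:149846001 and chr7:149850001. They were 2.60% and 4.14% in the Cdkn1c tiles that start at chr7:150645001 and chr7:150647001. Some of these tiles were also under 10% in XO and MEFs. The share of such tiles among all tiles was not counted. Against MEFs, 1 of 11 member tiles was higher in male iPSCs (3.83% of all tiles) and 1 lower (16.6%), and in XO 1 was higher (4.38%) and 1 lower (14.6%). In XO against male iPSCs, 0 of 11 were called, as were 0% of all tiles (quasi-binomial fit; 3375 of 96660 tiles had an unadjusted p under 0.05, and limma called 0).

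In the fit without XO 9, which added the H19 control window tile and 4 Kcnq1ot1 tiles, 11 of 16 member tiles were lower in XaXa than in XO (75.7% of all tiles), 9 of 16 lower than in male iPSCs (67.1%) and 8 of 16 lower than in MEFs (66.9%). With XO 6 as the only XO library, the median XaXa minus XO difference of the 11 member tiles was -12.7 points. That of the 2 H19 tiles was -37.0. Without XaXa 8, 0 of 11 member tiles, and 0 tiles of all, were called in XaXa against XO or male iPSCs (41226 and 37313 tiles at an unadjusted p under 0.05), although the H19 tile differences to XO remained at -33.6 and -34.8 points.

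**Figure D5:**
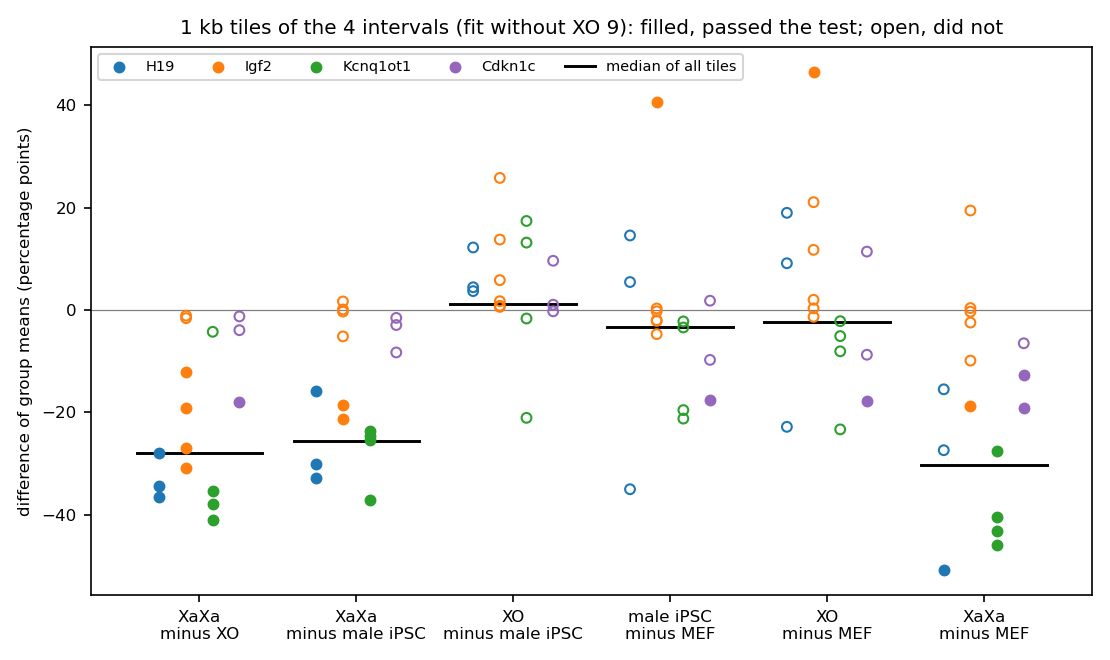
Difference of group means (percentage points) for the 16 member tiles in the fit without XO 9, by comparison; filled points passed the test and open points did not, and black lines are the median over all 128887 tiles. In XaXa against XO, 3 of the 4 Kcnq1ot1 tiles lie below the median and the tile of its control window lies near 0, at -4.28; the Igf2 tile at 40.7 and 46.5 points stands apart against MEFs.

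Beyond the 4 intervals, the imprinted domain held 56 further tiles in the fit of all libraries. Of these, 36 were lower in XaXa than in XO (69.7% of all tiles were), 35 lower than in male iPSCs (62.4%), and 0 were called between XO and male iPSCs (0%). Against MEFs, XaXa had 25 lower (63.8%) and 2 higher (0.702%), male iPSCs 2 lower (16.6%) and 6 higher (3.83%), and XO 2 lower (14.6%) and 7 higher (4.38%). Of 13 genes listed for the domain, 8 had a RefSeq promoter sequence and 5 could be placed. The promoters of Ascl2, a transcription factor of the placenta, Cd81, a tetraspanin, Tssc4 and Phlda2, a growth-restraining gene, stood between 0% and 5.56% in all 13 libraries. The tile that holds the Ascl2 start, unlike its promoter CpGs, was lower in male iPSCs than in MEFs (difference -25.9, quasi-binomial adjusted p = 0.00315). It was also lower than in MEFs in XO (difference -25.8, adjusted p = 0.00249) and XaXa (difference -26.3, adjusted p = 0.00184).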

How the data were processed

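The 13 RRBS libraries of the series were used. The authors deposited, per CpG, total and methylated read counts and their ratio as a fraction; alignment to mm9 with BSMAP is named in the submitters' processing notes, and other settings were not given in the sources used here. The deposited counts were used as they stand; the deposited fraction was not averaged. Reads without molecular identifiers are not independent molecules, so 95% Wilson intervals cover counting error only.

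A level is 100 times methylated over all reads, summed over an interval, window or 1 kb tile (1000 bases). Group means of libraries were compared by exact two-sided permutation tests (36 for intervals and control windows, not adjusted), whose smallest p was 0.0667 for XaXa against XO and XO against MEFs, 0.1 for male iPSCs against XaXa or MEFs, 0.0286 for XO against male iPSCs and 0.333 for XaXa against MEFs. Tiles with at least 10 summed reads in each library were fitted in 11 libraries with a quasi-binomial model (R 4.3.3, limma 3.58.1 for moderated dispersion), Benjamini-Hochberg over all tiles. Reads were weighted down with depth by a between-library correlation of 0.0279; this weighting was added after the unweighted fit called too many unchanged tiles in simulated data. Named are the intervals, control windows and all their fitted tiles. The members and lists were chosen with earlier results of these data known. Alternatives were a coverage minimum of 5 or 10 reads, CpGs common to all libraries, a cap of 50 reads, other filters and limma on log2 ratios, and leaving out libraries; the fits without XO 3, 5 and 9, without depth weights, and without a further library beside XO 9 were chosen after seeing the data. A group left with 1 library was assumed to vary like the others in the tile fit.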

Additional observations from a re-analysis of the deposited data

Results flagged for a closer look

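The SSEA1 libraries, with 1 library a group, entered no test. At Igf2 the SSEA1 negative library read 33.9% (95% Wilson interval from 30.9%), above the higher MEF library at 26.7%. At Cdkn1c the SSEA1 positive library read 42.2% (interval from 37.0%), above the higher MEF library at 25.8%. Both values were set against MEFs, and the cause was not tested.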

How the results depend on the processing

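Depth was low in the control windows: in XO 9 the H19 window rested on 8 reads and the Kcnq1ot1 window on 6. Of the interval, window, difference and ratio results, those that changed sign are given here, and the causes were not tested. At Cdkn1c the XO minus MEF difference, -5.57 as reported, was 6.79 over CpGs read in all 13 libraries, 6.53 over CpGs with at least 5 reads and 3.86 over CpGs common to the libraries other than XO 9. At H19 the XO minus male difference, 2.01 as reported, was -1.47 over CpGs with at least 10 reads; relative to the autosomes it was 0.01997 with an unweighted autosomal mean and 0.0964 without XO 3, 5 and 9, against -0.0467. At Igf2 the XO minus male difference, 6.78 as reported, was -3.68 without XO 3, 5 and 9 (-0.0710 relative to the autosomes), and the XaXa minus MEF difference, 1.70 as reported, was -0.656 as an unweighted mean over CpGs, -1.85 over common CpGs (with or without XO 9) and -0.00626 over CpGs with at least 10 reads. Over common CpGs the male iPSC minus MEF difference turned to 11.9 at Kcnq1ot1 and to 31.9 in its control window. The H19 minus Kcnq1ot1 difference of XO over male iPSCs, 49.3, passed the unadjusted test there, on 2 and 6 CpGs.

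Leaving out 1 library at a time, the sign changed within these ranges: H19 XO minus male, -2.07 to 7.31; Igf2 XaXa minus male, -11.0 to 2.76, and XaXa minus MEF, -5.18 to 8.58; Kcnq1ot1 control window XaXa minus XO, -4.40 to 2.49, and male minus MEF, -14.6 to 6.71; H19 minus Kcnq1ot1 control window XO minus MEF, -25.2 to 18.6, and XaXa minus male, -6.38 to 24.0. Relative to the autosomes they were -0.361 to 0.109 (H19, XaXa minus XO), -0.407 to 0.0627 (XaXa minus male), -0.157 to 0.118 (XO minus male) and -0.105 to 0.365 (XaXa minus MEF), -0.0102 to 0.0862 (Igf2, XaXa minus XO), -0.173 to 0.0550 (Kcnq1ot1, male minus MEF) and -0.0553 to 0.0287 (Cdkn1c, XaXa minus male).

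Over all tiles, counts moved by over 1.5 times as follows. With at least 20 summed reads, where fewer tiles were tested, lower and higher calls were 24206 and 6 (XaXa against XO), 21371 and 34 (XaXa against male), 8744 and 1614 (male against MEF), 7754 and 1794 (XO against MEF) and 24915 and 306 (XaXa against MEF). Over common CpGs, calls were 10643 lower and 2380 higher (male against MEF) and 9277 lower (XO against MEF). Without depth weights, XaXa against XO had 21 higher, and XO against male iPSCs had 46 lower and 352 higher, where the reported fit had 0. In the fit without XO 9, higher calls were 121 (XaXa against male) and 6348 (XO against MEF). Fitting only the groups compared gave 123 higher (XaXa against male), 1873 (male against MEF) and 2602 (XO against MEF). The calls of Igf2 chr7:149843001-149844000 in XaXa against XO (limma on log2 ratios, adjusted p = 0.0548) and of Cdkn1c chr7:150645001-150646000 in male iPSCs against MEFs (groups fitted alone, adjusted p = 0.0770) were lost. Without XO 3, 5 and 9, higher calls were 62 (XaXa against XO) and 1920 and lower calls 8667 (XO against MEF). Leaving out 1 library gave 0 to 69834 lower and 0 to 16 higher (XaXa against XO), 0 to 61924 and 0 to 95 (XaXa against male), 36828 to 63172 and 262 to 762 (XaXa against MEF), 8929 to 17179 and 1849 to 4106 (male against MEF), 7414 to 14452 and 2111 to 4807 (XO against MEF) and 0 to 2 lower (XO against male).

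No paired analysis was possible because the groups compared share fewer than 2 replicate numbers.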
